A study of Mus musculus with 6 samples.

Results

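The genes described here are those of Wnt ligands, Wnt receptors and regulators of the Wnt pathway in Met-1 mouse mammary carcinoma cells with and without induction of miR-200c. Members were defined by their symbols: 37 genes whose symbols follow the patterns Wnt, Fzd, Dkk or Sfrp with a number, and 20 further genes named one by one (co-receptors, Dishevelled, destruction complex, TCF/LEF factors, E3 ligases, Porcn and Wif1). This gave 57 of the 43548 genes in the deposited expression table.

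The source of the Met-1 line was an MMTV-PyMT mouse with an advanced mammary tumor, and the strain is FVB/nJ. In such mice the mammary tumor virus promoter drives the polyoma middle T oncogene. Met-1 TripZ-200c cells carry the lentiviral vector pTripZ, from which the miR-200c precursor and red fluorescent protein are made once doxycycline (Dox) is added, and they are a single clone sorted for a vector that is silent without Dox and induced to an intermediate level with it. Cells in medium with 10% serum received vehicle (water) in the Minus Dox group or 1 µg/mL Dox in the Plus Dox group for 48 h, with 3 cultures per group, and mRNA was sequenced. Cells with the empty vector were not analysed here, so effects of Dox itself and of miR-200c cannot be told apart. Expression is in FPKM, the fragments on a transcript scaled to its length and to the size of the library, so how many reads lie behind a value is not known. Relative depth, read from ratios between the lowest FPKM values of a library and those of Minus Dox 1, was 1, 0.920 and 1.31 in Minus Dox 1 to 3 and 0.989, 1.49 and 1.12 in Plus Dox 1 to 3.

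Wnt proteins are secreted lipid-modified ligands that bind Frizzled receptors together with a co-receptor such as LRP5 or LRP6. Binding recruits Dishevelled and stops a destruction complex of Axin, APC and GSK3 from marking beta-catenin for degradation, after which beta-catenin enters the nucleus and activates genes with TCF/LEF factors, while other receptors such as ROR and RYK signal without beta-catenin. In the mammary gland, Wnt signals are known for their part in duct branching and stem cell maintenance, and ectopic Wnt1 was among the first known mammary oncogenes of the mouse.

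The induced miRNA is shown because its seed decides which messages it can pair with. Its mature strand lies at chr6:124718324-124718346 on the minus strand of GRCm38.p6 (sequence from RefSeq), and the seed, bases 2 to 8, is in capitals.
mmu-miR-200c-3p: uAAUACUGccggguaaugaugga
A message that pairs with all 7 seed bases holds CAGTATT in its 3′ UTR. The longest 3′ UTR in GENCODE M21 held this match in 4 of the 30 members that were tested (13.3%), namely Fzd3, Lrp5, Lrp6 and Apc, and in 1824 of the 10812 tested genes that have an annotated 3′ UTR (16.9%). Among the genes that passed and have an annotated 3′ UTR, the match was present in 299 of 964 that fell with Dox (31.0%) and in 79 of 847 that rose (9.33%).

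The labels were checked on Zeb1 and Zeb2, transcription factors whose messages are established miR-200c targets, and on Cdh1, the E-cadherin gene that ZEB proteins repress. Zeb1 was at 41.0, 42.1 and 42.3 FPKM in Minus Dox 1 to 3 and at 19.8, 20.3 and 23.6 FPKM in Plus Dox 1 to 3. Zeb2 was at 29.4, 30.7 and 27.9 FPKM without Dox, against 9.04, 7.82 and 8.0 FPKM with Dox. Both genes were lower in every Plus Dox library than in any Minus Dox library, with log2 fold changes of -0.98 (adjusted p = 3.62e-04 from limma) and -1.81 (adjusted p = 4.48e-05 from limma). Cdh1, at 0.0776, 0.0559 and 0.0419 FPKM without Dox, against 0.554, 0.692 and 1.24 FPKM with Dox, was low in all libraries and higher in each of those with Dox. No library went against its label.

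Markers of other cell types were read for the same purpose. Of 6 epithelial markers only Krt5 was listed at 0 throughout, and their summed level was 97.0, 91.6 and 92.5 FPKM without Dox, against 369, 400 and 406 FPKM with Dox, nearly all of it Krt18, a keratin of simple epithelia. Epcam, an epithelial surface protein, was at 0.0844, 0.137 and 0.161 FPKM without Dox, against 4.31, 3.88 and 3.98 FPKM with Dox. Epithelial markers other than Krt18 had no value above 0.388 FPKM in the carcinoma line without Dox. The 4 markers of fibroblasts or pericytes summed to 50.4, 52.0 and 52.7 FPKM without Dox and to 32.3, 31.8 and 29.9 FPKM with Dox, with Pdgfrb the most abundant by its mean and Lum at 0. The leukocyte markers Ptprc, Csf1r, Itgam, Cd3e and Emr1 summed to at most 0.338 FPKM, with Cd3e and Emr1 at 0, all 3 adipocyte markers were at 0, and the 4 endothelial markers summed to between 4.19 and 5.12 FPKM, nearly all of it Cdh5, with Pecam1 at or below 0.0848 FPKM. The epithelial and the fibroblast or pericyte sums moved with the groups, and their part in the results below was not tested. In bulk samples, fewer cells that express a gene and less of its RNA per cell cannot be told apart.

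The 12879 genes whose mean over the 6 libraries reached 1 FPKM were tested for a difference between the groups by limma on log2(FPKM + 0.1), a scale that understates the fold change of low genes. Passing the test means an adjusted p under 0.05 over all of these genes. The p-values measure only the spread between 3 cultures per group of the single clone. Of all genes tested, 15.0% passed, 7.06% higher and 7.97% lower with Dox, and 3.51% passed with a change of at least 1.5-fold.

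Of the 57 members, 30 reached the minimum and were tested, 14 lay below it and 13 were listed at 0 in all libraries. A value of 0 need not mean that a gene was silent, since all 37 mitochondrial genes of the table are listed at 0 as well. Of the members tested, 4 passed (13.3%), a share near the 15.0% of all genes: Wnt7b, Fzd6 and Dvl1 rose (10.0%, against 7.06% of all genes) and Lrp5 fell (3.33%, against 7.97%). Only Wnt7b passed with a change of at least 1.5-fold, against 3.51% of all genes. The groups did not overlap in 12 members tested (40.0%), 5 of them higher and 7 lower with Dox, against 35.0% of all genes. The median log2 fold change of the members tested was -0.02 and the median of its absolute value was 0.12, against 0.00387 and 0.13 over all genes tested. Quantile normalization and scaling to the same median left 3 members higher and 1 lower, while 1912 and 1992 of the 12879 genes passed.

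**Figure D1:**
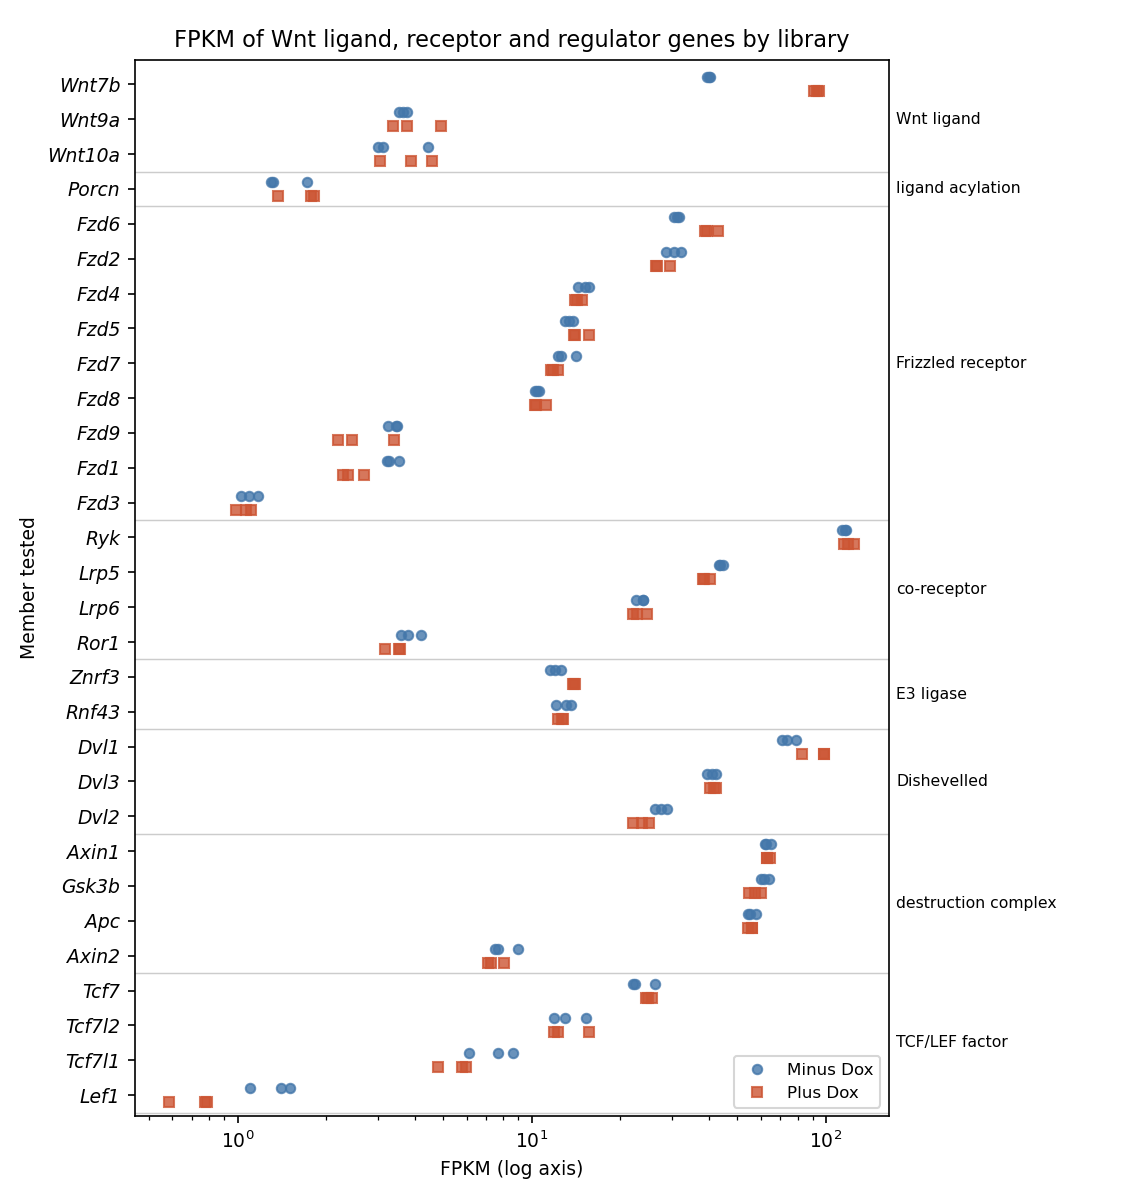
FPKM of each member tested in each library on a log axis, ordered by role, with 3 Minus Dox and 3 Plus Dox points per gene. Wnt7b is the only ligand above 5 FPKM, and its Plus Dox points (91.3 to 94.8 FPKM) lie apart from its Minus Dox points (39.3 to 40.2 FPKM).

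Among the 19 Wnt ligand genes, 3 were tested, 9 lay below the minimum and 7 were listed at 0 in all libraries. Wnt7b (ENSMUSG00000022382), a ligand known mostly for beta-catenin signaling, lies on chromosome 15 of GRCm38 from 85535437 to 85582473 on the minus strand. It was at 39.9, 40.2 and 39.3 FPKM in Minus Dox 1 to 3 and at 91.3, 94.8 and 93.5 FPKM in Plus Dox 1 to 3. The values were tight within each group and every library with Dox lay far above every library without it. Means were 39.8 ± 0.468 FPKM without Dox, against 93.2 ± 1.74 FPKM with Dox (SD, n = 3 each), a ratio of 2.34. The log2 fold change was 1.23 (standard error 0.0376, 95% interval 1.14 to 1.31, adjusted p = 8.78e-06 from limma), which stood at place 7 by p and at place 138 by increase among the 12879 genes. Wnt7b passed in 17 of 17 alternatives. AU022754, which overlaps Wnt7b on the opposite strand, was at 1.00, 1.09 and 1.39 FPKM without Dox, against 1.80, 1.82 and 1.86 FPKM with Dox. Its values, all higher with Dox, were far below those of Wnt7b, and since use of strand in counting is not stated, reads of the overlap cannot be told apart.

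Wnt9a and Wnt10a, ligands known from joint and from skin appendage development, were the other 2 tested, and both were chosen after their values were seen. Wnt9a was at 3.55, 3.66 and 3.75 FPKM without Dox, against 3.38, 3.77 and 4.90 FPKM with Dox. Wnt10a was at 3.11, 4.43 and 3.01 FPKM without Dox, against 3.04, 3.88 and 4.59 FPKM with Dox. In both genes the groups overlapped and the highest value was that of Plus Dox 3 (95% intervals of the log2 fold change -0.27 to 0.51 and -0.39 to 0.64). The 9 ligand genes below the minimum (Wnt5b, Wnt6, Wnt11, Wnt8a, Wnt2b, Wnt7a, Wnt1, Wnt8b and Wnt4) had no value above 0.446 FPKM. Those listed at 0 throughout were Wnt2, Wnt3, Wnt3a, Wnt5a, Wnt9b, Wnt10b and Wnt16. In summed FPKM the ligands came to 47.5, 48.9 and 47.0 without Dox and to 97.9, 103.1 and 103.3 with Dox. Wnt7b made up 84.0, 82.3 and 83.7% of this sum without Dox and 93.3, 91.9 and 90.5% with Dox. Without Wnt7b the sums were 7.59, 8.64 and 7.65 FPKM in Minus Dox 1 to 3 and 6.56, 8.31 and 9.79 FPKM in Plus Dox 1 to 3, so that the groups overlapped.

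**Figure D2:**
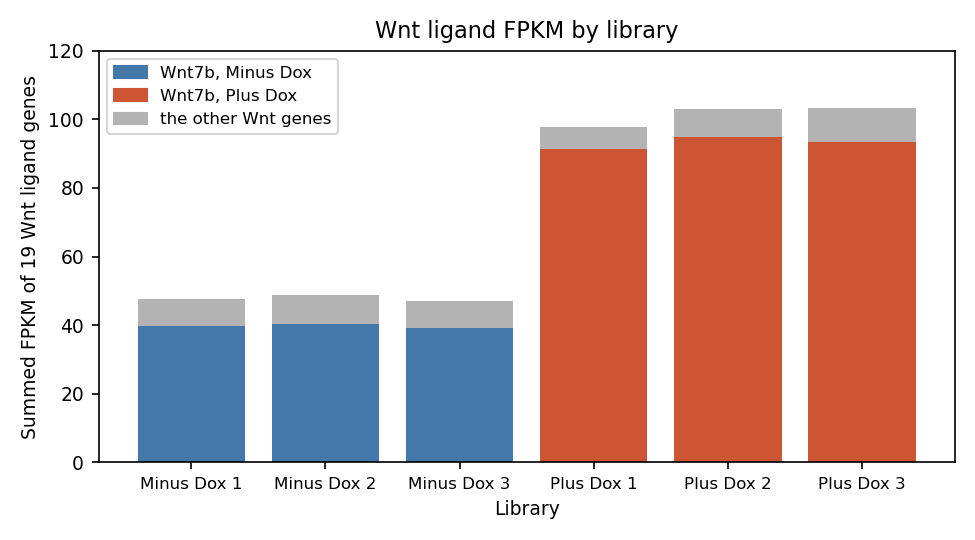
Stacked bars of the FPKM of Wnt ligand genes in each library, with Wnt7b and all other ligands set apart. Wnt7b accounts for 82.3 to 84.0% of the sum in Minus Dox libraries and 90.5 to 93.3% in Plus Dox libraries.

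Porcn encodes the membrane enzyme that attaches the lipid to Wnt proteins. It was at 1.72, 1.30 and 1.32 FPKM without Dox, against 1.37, 1.82 and 1.77 FPKM with Dox. The groups overlapped, and the log2 fold change of 0.18 had a 95% interval from -0.41 to 0.78.

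Of the 10 Frizzled receptor genes, 9 were tested and Fzd10 was listed at 0. Fzd6 (ENSMUSG00000022297), a receptor known for planar cell polarity and hair patterning, lies on chromosome 15 from 39006034 to 39038188 on the plus strand and had the highest mean FPKM of the family. Its values were 30.5, 31.7 and 31.1 FPKM in Minus Dox 1 to 3 and 39.4, 42.8 and 38.8 FPKM in Plus Dox 1 to 3. All 3 libraries with Dox lay above all 3 without it. Mean levels were 31.1 ± 0.576 FPKM and 40.3 ± 2.14 FPKM (SD, n = 3 each), a ratio of 1.30, and the log2 fold change was 0.37 (standard error 0.0538, 95% interval 0.25 to 0.50, adjusted p = 0.00501 from limma). Fzd6 passed in 16 of 17 alternatives and was lost only where a change of at least 1.5-fold was required. An overlapping gene on the opposite strand, Gm26704, had no value above 0.477 FPKM.

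The other Frizzled genes tested did not pass. On the FPKM scale Fzd2 came next in mean level (30.4 ± 1.73 without and 27.5 ± 1.71 with Dox, SD, n = 3 each), then Fzd4, Fzd5, Fzd7 and Fzd8, whose values lay between 10.3 and 15.7 FPKM in all libraries. Fzd5 shares 17.8% of its longest transcript with Gm38058, so its level is uncertain. Fzd9, Fzd1 and Fzd3 were lower, between 0.990 and 3.54 FPKM. Fzd1, chosen after its values were seen, was at 3.27, 3.22 and 3.54 FPKM without Dox, against 2.38, 2.28 and 2.69 FPKM with Dox. Its groups did not overlap, but the log2 fold change of -0.44 (95% interval -0.80 to -0.07) did not pass (adjusted p = 0.108 from limma). Fitted by limma without the trend of variance on level, Fzd1 passed (adjusted p = 0.0244). In the fits that kept the trend and left out a library, its adjusted p from limma was 0.141 to 0.239. Summed over the family, FPKM was 118, 123 and 122 without Dox and 125, 128 and 123 with Dox. Fzd6 held 25.8, 25.8 and 25.4% of this sum without Dox and 31.5, 33.4 and 31.5% with Dox.

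Lrp5, Lrp6, Ryk, Ror1 and Ror2 encode co-receptors and alternative receptors, and Ror2 alone was below the minimum. Lrp5 (ENSMUSG00000024913) lies on chromosome 19 from 3584828 to 3686564 on the minus strand and encodes a co-receptor that Frizzled-bound Wnt engages. It was at 44.7, 43.3 and 43.7 FPKM in Minus Dox 1 to 3 and at 38.1, 40.3 and 38.6 FPKM in Plus Dox 1 to 3. Every value with Dox was below every value without it, by a small margin. The means were 43.9 ± 0.736 FPKM and 39.0 ± 1.15 FPKM (SD, n = 3 each), a ratio of 0.889, with a log2 fold change of -0.17 (standard error 0.0445, 95% interval -0.27 to -0.07, adjusted p = 0.0448 from limma). This call rests on all 6 libraries, since the adjusted p from limma was 0.112, 0.0910 and 0.0968 without Minus Dox 1, 2 and 3 and 0.119, 0.0654 and 0.131 without Plus Dox 1, 2 and 3. With the replicate block it was 0.110, and without the trend 0.0642.

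The 3′ UTR of Lrp5, 7934 bases long, holds 1 match to the miR-200c seed, at base 968. It is shown because Lrp5 was the only member that passed and holds a match, with the 7 matched bases in capitals and 10 bases on either side.
Lrp5: ggcagagacgCAGTATTgaaagggtcc
The 3′ UTRs of Wnt7b, Fzd6 and Dvl1 hold 0 matches to these letters. Lrp6 and Fzd3, which each hold 1 match, had log2 fold changes of -0.02 (95% interval -0.17 to 0.12) and -0.05 (95% interval -0.72 to 0.61), and Apc, which holds 2, of -0.01 (95% interval -0.11 to 0.09). A match is a description of the sequence and not a measured site.

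Ryk, an atypical Wnt receptor, had the highest mean FPKM of all members tested. It was at 116, 113 and 117 FPKM without Dox, against 115, 125 and 119 FPKM with Dox. The groups overlapped (log2 fold change 0.05, 95% interval -0.05 to 0.15, adjusted p = 0.498 from limma). Lrp6, the second beta-catenin co-receptor, lay between 22.2 and 24.6 FPKM, and Ror1, a Wnt5a receptor, between 3.16 and 4.22 FPKM, and neither passed. Ror2 had no value above 0.0220 FPKM.

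Znrf3 and Rnf43 encode membrane E3 ligases that remove Frizzled receptors from the cell surface. Znrf3, which had the higher mean over all 6 libraries, was at 12.5, 11.9 and 11.5 FPKM without Dox, against 14.1, 13.8 and 13.9 FPKM with Dox. The groups did not overlap, but the log2 fold change of 0.22 (95% interval 0.06 to 0.37) narrowly missed the threshold (adjusted p = 0.0715 from limma). It passed in limma without the trend (adjusted p = 0.0435) and in an unmoderated linear model per gene (adjusted p = 0.0436), while leaving out a library with the trend kept gave adjusted p-values from limma between 0.0864 and 0.171. Rnf43 was between 12.1 and 13.6 FPKM with overlapping groups, above Znrf3 in each library without Dox and below it in each with Dox.

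Dishevelled proteins carry the signal from Frizzled into the cell. Dvl1 (ENSMUSG00000029071), on chromosome 4 from 155847402 to 155859303 on the plus strand, was the most abundant of the 3 genes by FPKM. Its values were 71.0, 73.9 and 78.8 FPKM in Minus Dox 1 to 3 and 82.8, 98.2 and 98.4 FPKM in Plus Dox 1 to 3. The groups did not overlap, although Plus Dox 1 was only slightly above Minus Dox 3. Mean levels were 74.6 ± 3.92 FPKM and 93.1 ± 8.95 FPKM (SD, n = 3 each), a ratio of 1.25, with a log2 fold change of 0.32 (standard error 0.0771, 95% interval 0.13 to 0.50, adjusted p = 0.0352 from limma). The call was lost without Minus Dox 1, 2 or 3 (adjusted p = 0.101, 0.0951 and 0.0560 from limma) and without Plus Dox 2 or 3 (adjusted p = 0.111 and 0.115 from limma), and kept without Plus Dox 1 (adjusted p = 0.0107). It was also lost in limma without the minimum (adjusted p = 0.0707), in limma without the trend (adjusted p = 0.0793) and in the unmoderated model (adjusted p = 0.130). Tas1r3, which overlaps Dvl1 on the opposite strand, had no value above 0.393 FPKM.

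The 300 bases around the start of Dvl1, chr4:155847152-155847451 on the plus strand of GRCm38.p6 (RefSeq), are shown because they are the only promoter at hand of a member that passed. They were searched on both strands for CTTTGA, the core bound by TCF/LEF factors, and for CACCTG, an E-box bound by ZEB proteins, and the single match found, to CACCTG, is in capitals.
Dvl1: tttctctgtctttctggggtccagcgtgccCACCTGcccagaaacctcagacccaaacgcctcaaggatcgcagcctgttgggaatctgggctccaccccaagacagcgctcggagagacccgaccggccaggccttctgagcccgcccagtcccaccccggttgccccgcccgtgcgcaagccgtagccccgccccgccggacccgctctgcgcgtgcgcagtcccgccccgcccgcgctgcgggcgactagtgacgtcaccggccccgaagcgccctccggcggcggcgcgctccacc
The first motif was present in 5257 of 32851 promoters of this length (16.0%) and the second in 6640 (20.2%). Among the members tested, 18 had 24 promoters in the same source, and 4 of these (16.7%) held each motif. The genes Wnt7b, Fzd6 and Lrp5 had no entry.

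Dvl2, chosen after its values were seen, was at 28.8, 26.2 and 27.5 FPKM without Dox, against 22.0, 23.6 and 25.0 FPKM with Dox. Its groups did not overlap either, and in the opposite sense to Dvl1, but the log2 fold change of -0.22 (95% interval -0.38 to -0.07) did not pass (adjusted p = 0.0681 from limma). Dvl2 shares 22.4% of its longest transcript with its neighbor Acadvl, so its level is uncertain. Dvl3 lay between 39.5 and 42.2 FPKM in all libraries, with overlapping groups. In summed FPKM the 3 genes came to 142, 140 and 147 without Dox and to 146, 164 and 164 with Dox.

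**Figure D3:**
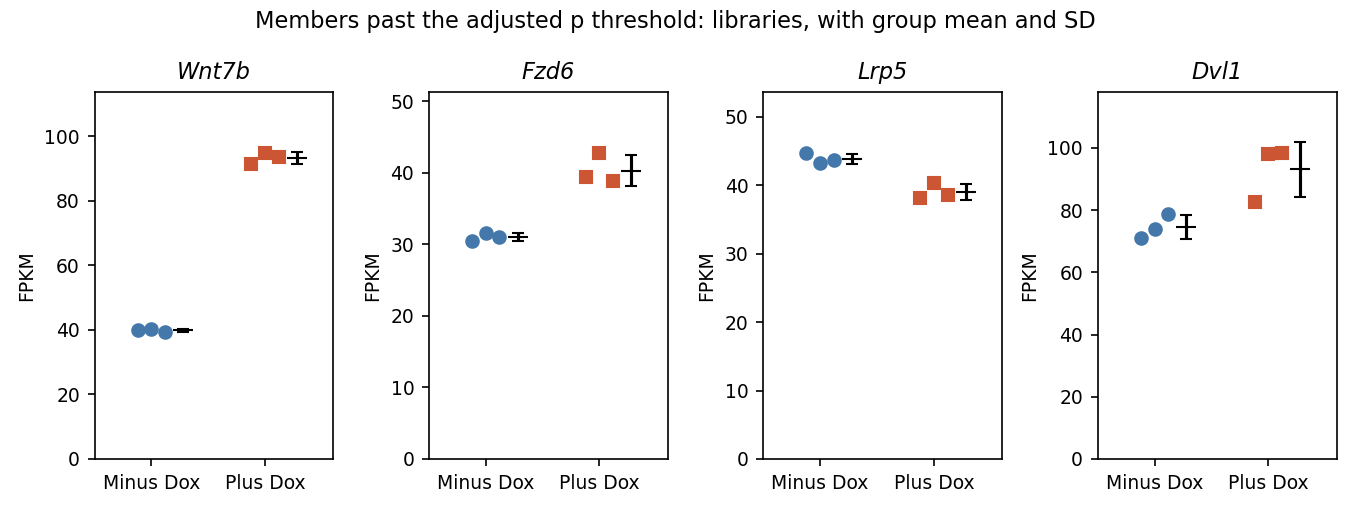
FPKM in each library of the 4 members that passed, with a dash at each group mean and error bars of 1 SD (n = 3). Wnt7b, Fzd6 and Dvl1 are higher in all Plus Dox libraries and Lrp5 is lower in all of them, with Dvl1 showing the widest spread (93.1 ± 8.95 FPKM with Dox).

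All 4 genes of the destruction complex were tested and none passed in limma, with 0 of them at an unadjusted p under 0.05, against 29.2% of all genes tested. Axin1, the scaffold of the complex, had the highest mean FPKM over all libraries. It was at 62.3, 62.1 and 64.8 FPKM without Dox, against 63.1, 62.9 and 64.4 FPKM with Dox. The groups overlapped closely (log2 fold change 0.01, 95% interval -0.08 to 0.10). Gsk3b, the kinase that phosphorylates beta-catenin, had means of 62.0 ± 2.01 FPKM without Dox, against 57.3 ± 2.72 FPKM with Dox, and Apc, the tumor suppressor of the complex, of 55.8 ± 1.72 FPKM and 55.5 ± 1.03 FPKM (SD, n = 3 each), where only for Gsk3b the groups did not overlap, by a margin of 60.2 against 60.0 FPKM. Axin2, which is both a scaffold and a widely used readout of beta-catenin activity, was chosen after its values were seen. It was at 8.98, 7.51 and 7.66 FPKM without Dox, against 8.03, 7.08 and 7.28 FPKM with Dox. These ranges overlapped, and the log2 fold change of -0.11 had a 95% interval from -0.36 to 0.14 (adjusted p = 0.568 from limma).

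The 4 TCF/LEF factors bind DNA and recruit beta-catenin, and none passed in limma, while 2 of them had an unadjusted p under 0.05, as did 29.2% of all genes tested. Tcf7 had the highest mean FPKM, at 22.0, 22.4 and 26.3 FPKM without Dox, against 24.4, 25.6 and 24.8 FPKM with Dox. Minus Dox 3 held its highest value, and the groups overlapped (log2 fold change 0.09, 95% interval -0.10 to 0.27). Tcf7l2 lay between 11.9 and 15.6 FPKM with overlapping groups. Tcf7l1 and Lef1, both chosen after their values were seen, were the factors whose groups did not overlap. Tcf7l1, mostly a repressor, was at 8.62, 7.68 and 6.13 FPKM without Dox, against 4.78, 5.80 and 5.98 FPKM with Dox. Lef1, mostly an activator, was at 1.51, 1.10 and 1.40 FPKM without Dox, against 0.785, 0.586 and 0.778 FPKM with Dox. Every value of these genes was lower with Dox, in Tcf7l1 by a narrow margin between Plus Dox 3 and Minus Dox 3. Their log2 fold changes were -0.42 (95% interval -0.79 to -0.06, adjusted p = 0.123 from limma) and -0.82 (95% interval -1.59 to -0.05, adjusted p = 0.150 from limma). Lef1, whose mean over all libraries (1.03 FPKM) reached the minimum through the Minus Dox group alone (1.34 against 0.716 FPKM), passed in limma without the trend (adjusted p = 0.0301). With the trend kept and a library left out, its adjusted p from limma was 0.172 to 0.277.

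Among secreted inhibitors, the Sfrp family and Wif1 bind Wnt ligands, and Dkk1, Dkk2 and Dkk4 bind LRP co-receptors. The 9 genes of secreted inhibitors were all below the minimum or listed at 0. Sfrp1 had the highest mean FPKM of these at 0.0555, 0.10 and 0.0566 FPKM without Dox, against 0.0374, 0.0871 and 0 FPKM with Dox. These values are near the floor of the table and the groups overlapped. The highest single value was 0.183 FPKM, for Wif1 in Plus Dox 1. Dkk1, Dkk2, Dkk4, Sfrp4 and Sfrp5 were listed at 0 in all libraries, and Sfrp2 and Dkk3 were above 0 in 1 and 2 libraries.

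**Figure D4:**
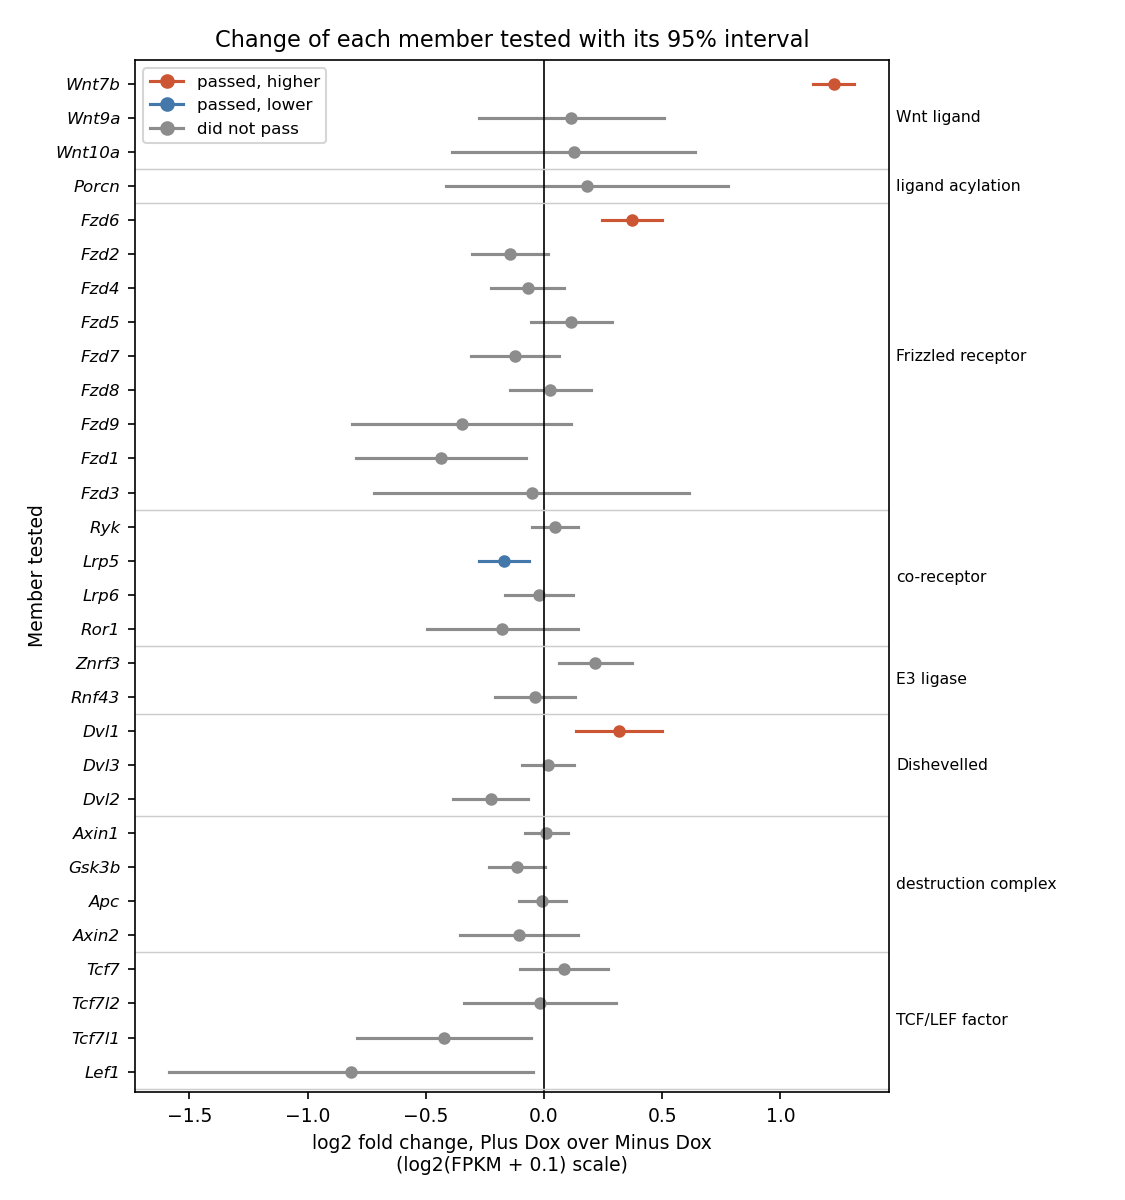
Log2 fold change (Plus Dox over Minus Dox, log2(FPKM + 0.1) scale) of the 30 members tested, with 95% intervals from limma, ordered by role. Wnt7b (1.23) stands apart, Fzd6 and Dvl1 also passed as higher and Lrp5 as lower, and the intervals are widest for low genes such as Lef1 (-1.59 to -0.05).

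Beyond the members, 88 other genes of the pathway were listed by role. Of these 56 were tested, 18 lay below the minimum and 14 were listed at 0. In limma 17 of the 56 passed (30.4%, against 15.0% of all genes tested), 4 higher (7.14%, against 7.06%) and 13 lower with Dox (23.2%, against 7.97%). The groups did not overlap in 29 of the genes tested (51.8%, against 35.0% of all genes), 9 higher and 20 lower with Dox. Their median log2 fold change was -0.05 and the median of its absolute value 0.14, against 0.00387 and 0.13 over all genes. The list was written with earlier results of these data known, so the shares are a description.

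For ligand secretion and agonists, 3 of 7 genes were tested and none passed in limma, while 2 had an unadjusted p under 0.05 (29.2% of all genes did). Wls, the carrier that brings Wnt proteins to the cell surface, and Rspo3, an R-spondin that strengthens Wnt signaling, were chosen after their values were seen. Wls was at 43.0, 42.6 and 43.2 FPKM without Dox, against 34.8, 40.0 and 35.6 FPKM with Dox. Rspo3 was at 2.76, 2.51 and 1.87 FPKM without Dox, against 1.64, 1.12 and 1.21 FPKM with Dox. In neither gene did the groups overlap, and both missed the threshold (log2 fold changes -0.22 and -0.80, adjusted p = 0.0527 and 0.0862 from limma). Wls passed in 4 of the 15 other fits (lowest adjusted p = 0.0232 from limma) and Rspo3 in 0 of 14.

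Of 8 other receptors and co-receptors 6 were tested and 2 fell (33.3%, against 7.97% of all genes). Reck and Gpr124 encode membrane proteins that act together as a co-receptor for Wnt7a and Wnt7b. Reck was at 13.1, 11.8 and 12.9 FPKM in Minus Dox 1 to 3 and at 6.93, 8.08 and 8.03 FPKM in Plus Dox 1 to 3. Gpr124 was at 6.20, 6.40 and 5.55 FPKM in Minus Dox 1 to 3 and at 4.02, 4.29 and 3.84 FPKM in Plus Dox 1 to 3. In both genes all libraries with Dox were clearly below those without. The log2 fold changes were -0.71 for Reck (standard error 0.0935, adjusted p = 0.00363 from limma) and -0.57 for Gpr124 (standard error 0.115, adjusted p = 0.0183 from limma). Reck passed with each library left out, whereas Gpr124 did not pass without Minus Dox 1 or 2 (adjusted p = 0.0575 and 0.0652 from limma) or without Plus Dox 1 or 3 (adjusted p = 0.0546 and 0.0680 from limma).

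The 3′ UTR of Reck, 1441 bases long, holds 1 seed match at base 121, and that of Id2, a target gene described further on, holds 1 at base 385 of 785. They are shown as the 2 lower pathway genes with a match besides Apcdd1, with the matched bases in capitals.
Reck: tagcaccacaCAGTATTtttttcacct
Id2: cagaaggaccCAGTATTcggttactta
Of the 17 other pathway genes that passed, 4 held a match (Reck, Id2, Apcdd1 and Tbl1x), and of the 56 tested 8 did (14.3%, against 16.9% of all genes). Among all genes that passed, a match was present in 31.0% of those that fell and 9.33% of those that rose. Tbl1x, with a match, was higher with Dox.

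Among 9 further secreted or membrane inhibitors, 4 were tested and 3 passed (75.0%, against 15.0% of all genes), 2 lower and 1 higher with Dox. Apcdd1, a membrane protein that binds Wnt and LRP5, was at 147, 147 and 135 FPKM without Dox, against 104, 97.3 and 98.0 FPKM with Dox. Trabd2b, a metalloprotease that cleaves Wnt proteins, was at 10.0, 10.4 and 10.0 FPKM without Dox, against 7.17, 6.78 and 6.32 FPKM with Dox. Both inhibitors fell, with no overlap between groups (log2 fold changes -0.52 and -0.58, adjusted p = 7.20e-04 and 0.00523 from limma). Kremen1, a receptor for Dkk proteins, rose from 10.1, 9.83 and 9.68 FPKM to 12.8, 13.9 and 14.5 FPKM. All its libraries with Dox were above those without (log2 fold change 0.47, standard error 0.0752, adjusted p = 0.00797 from limma). These 3 calls were kept with each library left out.

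In cytoplasmic regulation of beta-catenin, 11 of 12 genes were tested and 1 passed (9.09%, against 15.0% of all genes). Csnk1d, a casein kinase, was at 229, 237 and 230 FPKM without Dox, against 248, 257 and 251 FPKM with Dox. The groups did not overlap, and the change was 0.12 on the log2 scale (adjusted p = 0.0365 from limma). The call was lost without each of Minus Dox 1, 2 and 3 and Plus Dox 1, 2 and 3 (adjusted p between 0.0591 and 0.104 from limma), with the replicate block (0.0734), under quantile normalization (0.0668), without the minimum (0.0522) and without the trend (0.120). Ctnnb1, the beta-catenin gene itself, chosen after its values were seen, stood at 432, 438 and 410 FPKM without Dox, against 409, 441 and 398 FPKM with Dox. Its groups overlapped (log2 fold change -0.04, 95% interval -0.15 to 0.07, adjusted p = 0.642 from limma). The values are of mRNA, and beta-catenin protein was not measured.

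Of 16 nuclear cofactors 14 were tested, of which 1 rose (7.14%, against 7.06% of all genes) and 2 fell (14.3%, against 7.97%). Tle2, a Groucho family co-repressor, was at 15.9, 15.5 and 16.0 FPKM without Dox, against 10.0, 9.99 and 11.6 FPKM with Dox. Cby1, which binds beta-catenin and keeps it from TCF factors, was at 45.9, 47.8 and 48.2 FPKM without Dox, against 42.5, 39.5 and 38.4 FPKM with Dox. Tbl1x, a co-factor of beta-catenin on target genes, was at 63.4, 60.2 and 61.0 FPKM without Dox, against 75.9, 73.6 and 74.0 FPKM with Dox. Tle2 and Cby1 were lower and Tbl1x higher in each library with Dox than in any without. Log2 fold changes were -0.58 for Tle2, -0.24 for Cby1 and 0.28 for Tbl1x (adjusted p = 0.00458, 0.0270 and 0.00499 from limma). Cby1 did not pass without Minus Dox 2 or 3 (adjusted p = 0.0800 and 0.0813 from limma), without Plus Dox 2 or 3 (adjusted p = 0.0862 and 0.0912), with the replicate block (0.0750), without the trend (0.0514) or in the unmoderated model (0.0665).

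Of 17 genes for planar cell polarity and Dishevelled partners 7 were tested and 1 fell (14.3%, against 7.97% of all genes). Dact3, a Dishevelled-binding antagonist, was at 6.04, 5.98 and 5.95 FPKM without Dox, against 3.22, 3.19 and 3.07 FPKM with Dox. The 2 groups were tight and far apart, with a log2 fold change of -0.90 (standard error 0.109, 95% interval -1.16 to -0.65, adjusted p = 0.00242 from limma), and the call was kept with each library left out. Its relative Dact2, chosen after its values were seen, lay just below the minimum at 0.506, 0.390 and 0.685 FPKM without Dox, against 1.26, 0.983 and 2.14 FPKM with Dox. Dact2 was higher in each library with Dox, but did not pass in the fit without the minimum (log2 fold change 1.27, 95% interval 0.35 to 2.20, adjusted p = 0.116 from limma).

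Of 19 genes known as beta-catenin/TCF targets in other tissues 11 were tested, of which 6 fell (54.5%, against 7.97% of all genes) and 1 rose (9.09%, against 7.06%). These shares leave out all members. Axin2, the readout of beta-catenin activity described above, is thus not counted here, and it did not pass (adjusted p = 0.568 from limma). The TCF/LEF factors and E3 ligases, of which none passed, were likewise counted as members only. Nkd2, a feedback inhibitor that binds Dishevelled, was at 2.57, 1.96 and 3.28 FPKM without Dox, against 1.26, 1.11 and 1.42 FPKM with Dox. Fosl1, an AP-1 transcription factor, was at 244, 244 and 229 FPKM without Dox, against 178, 173 and 190 FPKM with Dox. Ccnd1, the cyclin of early G1 phase, was at 1162, 1166 and 1196 FPKM without Dox, against 1049, 1054 and 1048 FPKM with Dox. In these genes all values with Dox were below all values without, and on the log2 scale both the distance and the spread were largest in Nkd2. Log2 fold changes were -0.96 for Nkd2 (95% interval -1.57 to -0.35), -0.41 for Fosl1 (95% interval -0.51 to -0.30) and -0.16 for Ccnd1 (95% interval -0.21 to -0.11), with adjusted p-values of 0.0489, 0.00183 and 0.00406 from limma. Fosl1 shares 62.5% of its longest transcript with Ccdc85b and Ccnd1 shares 29.5% with LTO1, so both levels are uncertain.

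Cd44, a hyaluronan receptor, Sox9, a transcription factor of progenitor cells, and Id2, an inhibitor of helix-loop-helix factors, also fell. Their means went from 217 ± 2.03 to 196 ± 4.75 FPKM for Cd44, from 113 ± 0.481 to 98.8 ± 4.19 FPKM for Sox9 and from 123 ± 6.10 to 106 ± 4.24 FPKM for Id2 (SD, n = 3 each). The log2 fold changes were -0.15, -0.19 and -0.22 (adjusted p = 0.0208, 0.0211 and 0.0284 from limma). Birc5, the survivin gene, was at 494, 483 and 476 FPKM without Dox, against 521, 567 and 531 FPKM with Dox. It was higher in all 3 libraries with Dox (log2 fold change 0.16, adjusted p = 0.0332 from limma). Myc, chosen after its values were seen, was at 117, 118 and 119 FPKM without Dox, against 119, 132 and 129 FPKM with Dox. Minus Dox 3 and Plus Dox 1 lay side by side, and the log2 fold change of 0.10 did not pass (adjusted p = 0.189 from limma).

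Among the target genes, 5 calls were lost in limma when certain libraries were left out. Nkd2 was lost without Minus Dox 1 (adjusted p = 0.109) or 3 (0.134) and without Plus Dox 1 (0.106), 2 (0.128) or 3 (0.0917). Cd44 was lost without Minus Dox 1 (adjusted p = 0.0587) or 2 (0.0709) and without Plus Dox 1 (0.0580) or 3 (0.0588). For Sox9 this held without Minus Dox 1 (adjusted p = 0.0555), 2 (0.0654) or 3 (0.0610) and without Plus Dox 1 (0.0536) or 2 (0.0621). Id2 did not pass without Minus Dox 1 (adjusted p = 0.0761) or 2 (0.0812) nor without Plus Dox 1 (0.0871) or 3 (0.0978). Birc5 did not pass without Minus Dox 1 (adjusted p = 0.0637), 2 (0.0939) or 3 (0.0980) nor without Plus Dox 2 (0.0584) or 3 (0.0800). With the replicate block, the adjusted p from limma was 0.0705 for Nkd2, 0.0599 for Cd44 and 0.0669 for Birc5, and without the minimum it was 0.0858 for Nkd2 and 0.0713 for Birc5. Limma without the trend lost Cd44, Sox9, Id2 and Birc5 (adjusted p = 0.0783, 0.0584, 0.0709 and 0.110) and, narrowly, Ccnd1 (adjusted p = 0.0520). Unmoderated models per gene, set beside limma, lost Nkd2, Sox9, Id2 and Birc5 (adjusted p = 0.0966, 0.0537, 0.0902 and 0.101). Fosl1 and Ccnd1 passed with each library left out, and of the 7 calls only that of Fosl1 was kept in all 15 other fits.

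**Figure D5:**
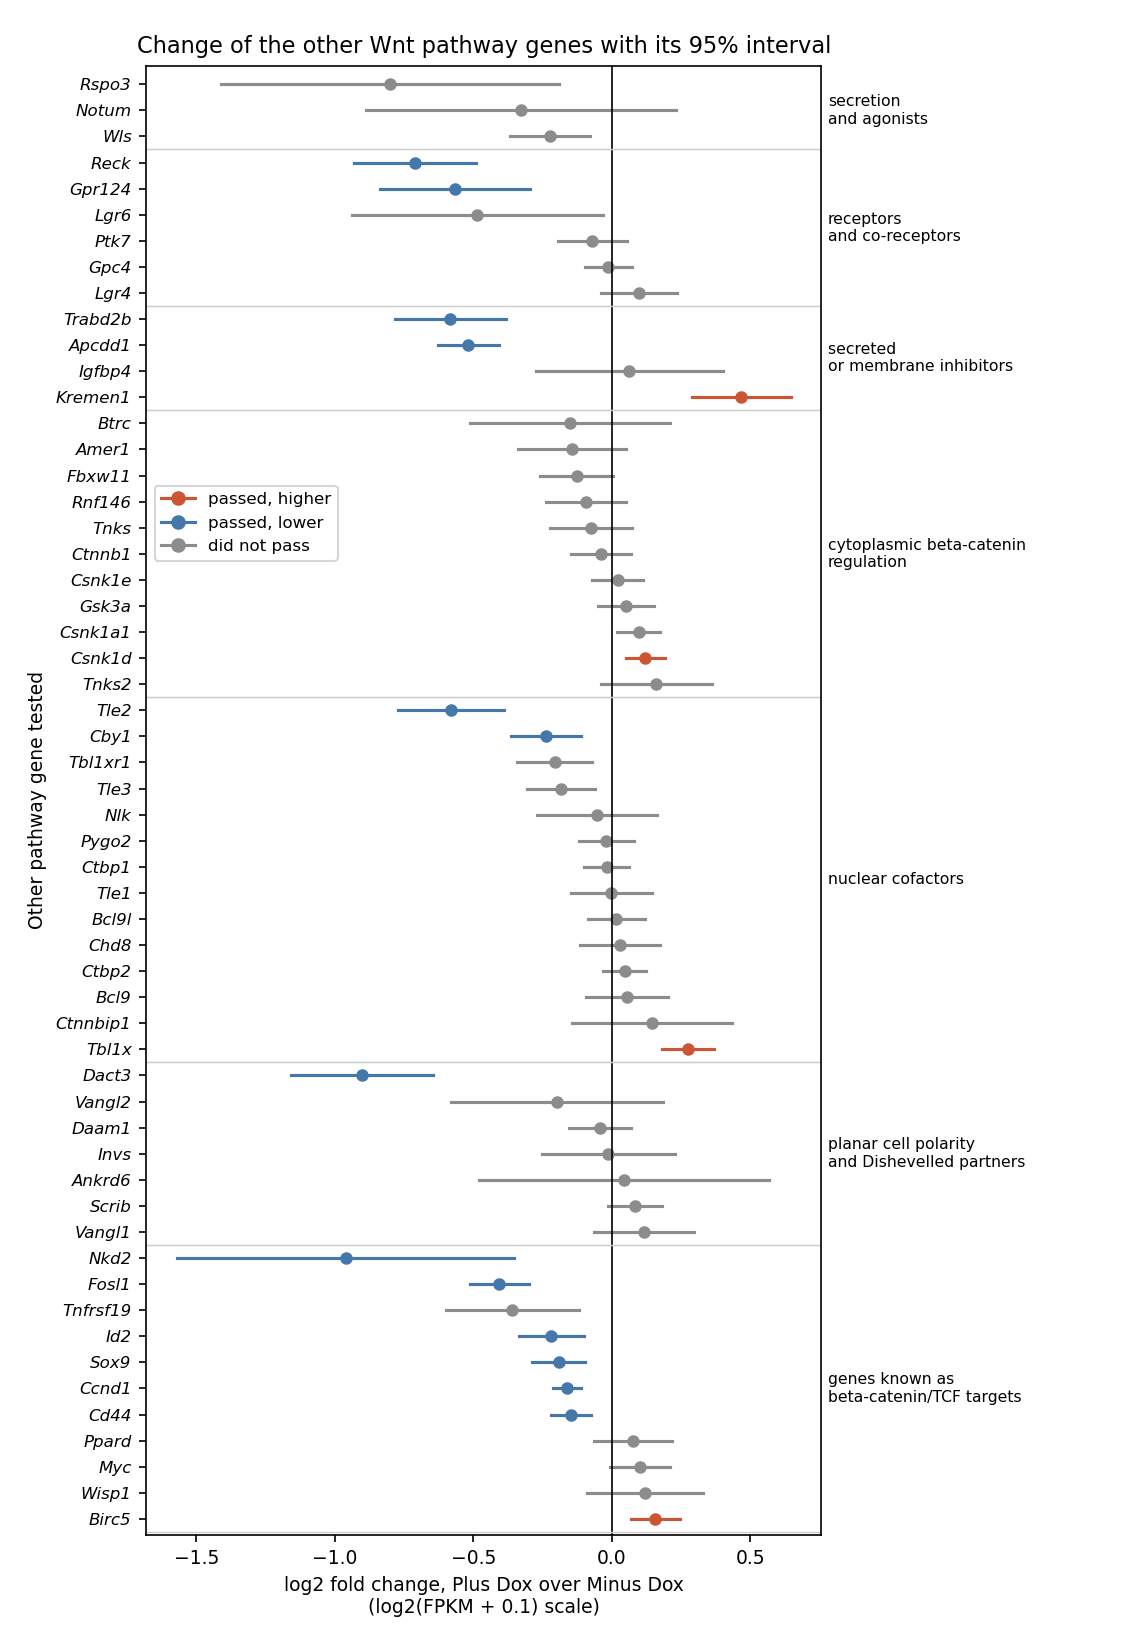
Log2 fold change (Plus Dox over Minus Dox, log2(FPKM + 0.1) scale) of the 56 other pathway genes tested, with 95% intervals from limma, ordered by role. The 13 genes that passed as lower include Reck, Gpr124, Apcdd1, Trabd2b, Tle2 and Dact3, and the 4 that passed as higher are Kremen1, Csnk1d, Tbl1x and Birc5.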

How the data were processed

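Libraries of Met-1 TripZ-200c mRNA were made with a stranded kit and read as single 50-base reads. The authors mapped reads with gSNAP to the mouse genome (GRCm38.p6 and FVB_NJ_v1) and deposited FPKM values from Cufflinks; the submitters' processing notes name Cufflinks and GRCm38.p6. Whether counting used the strand is not stated. The table also holds the authors' group means, fold changes, p-values and q-values, and none of these was used. Of 43611 entries, 63 repeats of a gene identifier were dropped, and 6 placeholder values were treated as missing.

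Genes were compared with limma 3.58.1 in R 4.3.3 (lmFit, eBayes with a trend) on log2(FPKM + 0.1), with Benjamini-Hochberg adjustment over the 12879 genes whose mean reached 1 FPKM and a threshold of 0.05. Genes below this minimum were read from the same model without it (20513 genes). The model was run on simulated data that follow its own assumptions, which checks the code and not the calls made here.

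Members and lists were chosen with earlier results of these data known. A further leukocyte marker is not reported here. Values in every library were given for members that passed, for the member with the highest mean of each role and for members listed at 0 in 1 group only with a mean of at least 0.3 FPKM in the other, of which there were none; of the other pathway genes, those that passed were named, and further genes are marked as chosen after their values were seen. Gene positions and 3′ UTRs came from GENCODE M21, promoters and miRNA from RefSeq (GRCm38.p6); an FVB/NJ assembly was not used. The longest transcripts of named genes were compared with all others by BLAST 2.17.0 (95% identity over at least 50 bases), and genes that share at least 10% were marked. Python 3.11.15 with pandas 2.3.3, numpy 2.4.6 and matplotlib 3.10.9 was used for the rest.

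The 17 alternatives were pseudocounts of 1 and 0.01, no minimum, a minimum of 5 FPKM, scaling to the same median, quantile normalization, no trend, an unmoderated linear model on log2(FPKM + 1), the replicate number as a block, an adjusted p under 0.01, a change of at least 1.5-fold, and each of the 6 libraries left out in turn.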

Additional observations from a re-analysis of the deposited data

How the results depend on the processing

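Wnt7b passed in 17 of 17 alternatives, with a log2 fold change of 1.21 to 1.24 over them. At an adjusted p under 0.01 from limma, 2 members were higher and 0 lower. Among other pathway genes 2 were higher and 7 lower, and 770 of all genes passed. With a change of at least 1.5-fold required, 1 member was higher and 0 lower, 0 other pathway genes were higher and 3 lower, and 452 of all genes passed. In limma without the trend 3 members were higher (Wnt7b, Fzd6 and Znrf3, not Dvl1) and 2 lower (Fzd1 and Lef1, not Lrp5). In that fit 2 other pathway genes were higher and 9 lower, and 1495 of all genes passed, against 1935 with the trend. Lef1 reached the minimum only through the Minus Dox group, and no result is drawn from its call. Without the minimum, 2 members were higher and 1 lower. Among other pathway genes 2 were higher and 12 lower, and 1608 of the 20513 genes fitted passed. The unmoderated model had 3 members higher, with Znrf3 among them and not Dvl1, and 1 lower. It had 3 other pathway genes higher and 10 lower, and 1290 of all genes passed. For these counts the cause was not tested beyond the stricter thresholds themselves.

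With the replicate number as a replicate block, 0 members were lower, 2 other pathway genes were higher and 10 lower, and 1337 of all genes passed, with 1269 shared between the fits. Departures of genes from the group mean correlated between libraries of the same number at 0.0287, 0.0359 and -0.00759. Between libraries of different numbers the correlations ran from -0.0511 to 0.0235. The positive values for the same number lay above this range, but all values were small. The labels do not state a pairing, and the main fit did not use the numbers as pairs.

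With each library left out in turn, 2 to 3 members were higher and 0 lower (0 to 0), 2 to 3 other pathway genes were higher and 8 to 11 lower, and 1048 to 1359 of all genes passed. The fold change changed sign only for members that did not pass, with ranges over these 6 fits of -0.0257 to 0.017 for Apc, -0.0011 to 0.0297 for Axin1, -0.0079 to 0.0406 for Dvl3, -0.012 to 0.0501 for Fzd8, -0.0655 to 0.009 for Lrp6, -0.138 to 0.0854 for Tcf7l2, -0.0107 to 0.299 for Wnt10a and -0.0324 to 0.228 for Wnt9a. The number of reads behind low FPKM values is unknown and limits what can be said of the ligands and inhibitors near 0.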

Other observations

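The surroundings of the members that passed were read from GENCODE M21 after their values were seen. Within 250 kb on either side, 0 of 4 tested neighbors of Wnt7b and 0 of 3 of Fzd6 passed in limma, 1 of 8 did for Lrp5 and 1 of 22 for Dvl1, and of all genes tested 15.0% passed. The neighbor of Lrp5 was Cpt1a, a carnitine palmitoyltransferase (log2 fold change -0.46, adjusted p = 0.00325 from limma), and that of Dvl1 was Mib2, a ubiquitin ligase (log2 fold change -0.55, adjusted p = 0.0481 from limma). The window around Dvl1 also holds the genes of Mir200b, Mir200a and Mir429, on chromosome 4 between 156053905 and 156055750, which are relatives of the induced miR-200c and were not measured as mature miRNAs here.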
